A study of Homo sapiens with 16 samples.

Results

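The 5′ untranslated region (5′ UTR) is the stretch of an mRNA that the initiating ribosome crosses before it reaches the start codon. Argonaute 2 (Ago2) carries microRNAs to their target transcripts, and its best-known sites lie in 3′ untranslated regions (3′ UTRs). The RNA helicase eIF4A, a part of the cap-binding complex eIF4F, opens structure in 5′ UTRs so that the small ribosomal subunit can scan them. The natural product hippuristanol inhibits that helicase.

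Ago2 peaks were taken as 5′ UTR peaks where the deposited peak table annotates them to a 5′ UTR exon. There were 187 such rows, and 2 of them carried the same gene and values as another row and were counted once with it. This left 185 of 4718 peaks (3.92%), in 148 of the 2213 genes with any peak. The peaks came from crosslinking and immunoprecipitation (CLIP), in which a protein is crosslinked to the RNA it touches and the bound RNA is sequenced. All groups were cultures of the established human embryonic kidney line 293S, untreated or exposed for 30 min to hippuristanol at 1 µM. The sample titles number 2 replicates per treatment. Each replicate number has 1 RNA-seq library and 3 CLIP libraries, made with Ago2 antibodies from Abnova, Santa Cruz and Sigma. If a replicate number stands for 1 culture, which the titles do not say, the 12 CLIP libraries share 4 cultures.

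Each peak had 1 log average over treated and untreated cells and 1 log ratio of hippuristanol over untreated, both the authors' own values for the peak, pooled over libraries. No source used here names the base of the logarithm, so every value stays in the authors' log units, which cannot be turned into folds. Pooled values have no spread between cultures, so no difference between the treatments could be tested and the depth behind a peak is unknown. RNA levels were not analysed here, so a change in Ago2 binding and a change in the amount of the mRNA cannot be told apart. Of 14 marker genes of other cell types (such as ALB for liver and PTPRC for blood), 0 had a peak, which describes peaks and not RNA.

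Sequences at the starts of some of these mRNAs are shown first as background to the ribosomal protein genes described below. Many mRNAs of ribosomal proteins begin with a terminal oligopyrimidine (TOP) tract, a cytosine at the first base followed by further pyrimidines, through which their translation is controlled by the growth-regulating kinase mTOR. The lines below give 10 bases before and 20 bases from the RefSeq gene start (GRCh38.p14), with the tract in capitals. RPL32 and RPL17 have no such tract at this start, the only one read for each gene, and are shown for comparison.
RPL24 (chr3:101686699-101686728, minus strand): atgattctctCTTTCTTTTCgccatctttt
RPL38 (chr17:74203668-74203697, plus strand): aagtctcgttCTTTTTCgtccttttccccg
RPLP1 (chr15:69452808-69452837, plus strand): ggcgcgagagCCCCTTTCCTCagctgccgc
RPS25 (chr11:119018324-119018353, minus strand): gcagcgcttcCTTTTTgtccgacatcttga
NPM1 (chr5:171387839-171387868, plus strand): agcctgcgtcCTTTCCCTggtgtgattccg
CLNS1A (chr11:77637775-77637804, minus strand): gggtgactgcCTCTTCCagggcgggcggtg
RPL32 (chr3:12841546-12841575, minus strand): acgacccatcagcccttgcgcgccaccgtc
RPL17 (chr18:49492446-49492475, minus strand): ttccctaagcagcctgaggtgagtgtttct

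Mature microRNAs whose seed matches occurred in the annotated 5′ UTRs are shown next, with the seed (bases 2 to 8) in capitals, from RefSeq.
let-7a-5p: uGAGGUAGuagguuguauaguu
miR-17-5p: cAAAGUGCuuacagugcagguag
miR-16-5p: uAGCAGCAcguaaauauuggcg
miR-19b-3p: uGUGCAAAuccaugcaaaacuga

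One matching site per family is given from the GENCODE 29 transcripts, with the 7-nt match in capitals. The peaks have hg19 coordinates and the transcripts GRCh38 ones, so whether a site lies under a peak was not tested.
IGF2, let-7 site: ctcctcttcatCTACCTCaactccccccat
TEX30, miR-17 site: cagatgtaaatGCACTTTaagtttgttatt
RPL38, miR-15/16 site: ttttccccggtTGCTGCTtgctgtgagtgt
TNRC6B, miR-19 site: ttctgcagagtTTTGCACaaaatctgttcc

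The log ratios of 5′ UTR peaks lay on balance slightly above 0, as those of every other region did. Their median log ratio was 0.25, with quartiles of -0.23 and 0.65. The log ratio was above 0 for 117 of the 185 peaks (63.2%), where the share over all 4718 peaks was 59.1%. It was above 1 for 24 peaks (13.0%; 11.3% of all peaks) and below -1 for 9 (4.86%; 4.22% of all peaks). At a lower limit of 0.5, 57 peaks were above it (30.6% of all peaks were) and 30 below -0.5 (17.0% of all peaks). All of these shares are near those of all peaks. Coding sequence (CDS) peaks had a median of 0.20 over 949 peaks, 3′ UTR peaks 0.15 over 2894 and peaks in non-coding exons 0.08 over 690.

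**Figure D1:**
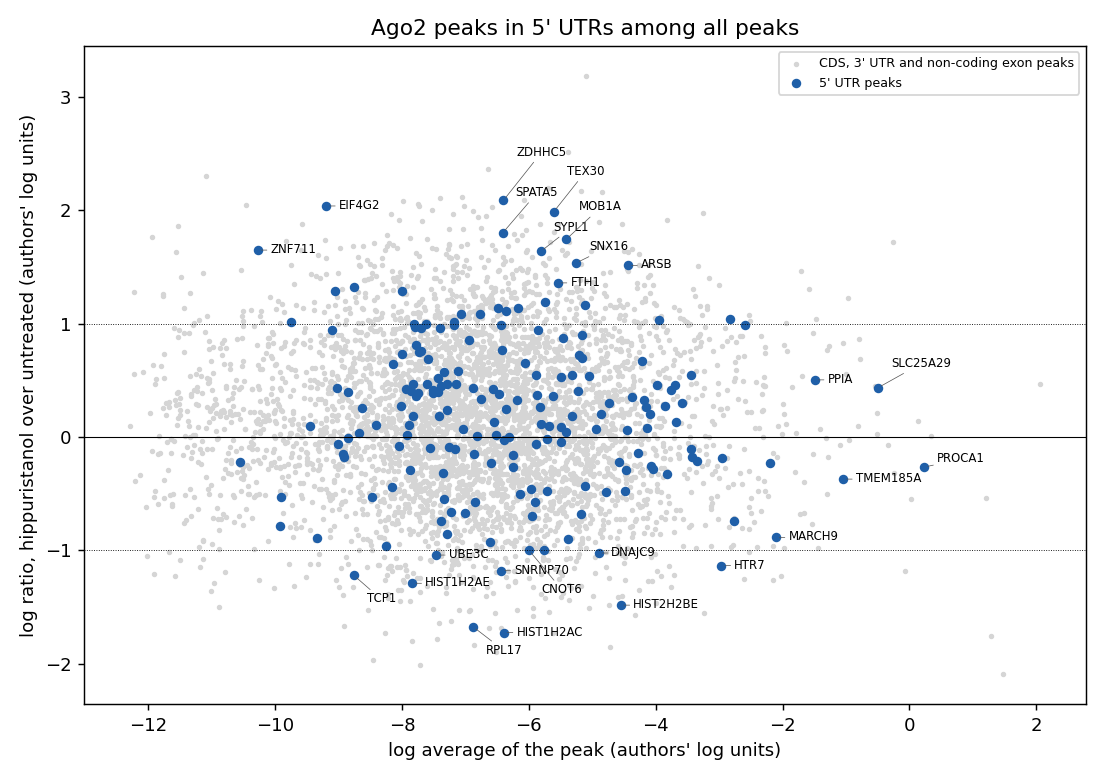
Log ratio (vertical axis) against log average (horizontal axis) of each Ago2 peak, both in the authors' log units, with 5′ UTR peaks in blue and all other peaks in grey; dotted lines mark 1 and -1. The 5′ UTR peaks span the cloud of other peaks, with 24 above 1 and 9 below -1, and named genes hold the most extreme log ratios and log averages.

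Most 5′ UTR peaks in the list of ribosomal proteins and translation elongation had log ratios above 0, and in the 4 ribosomal protein genes with further peaks those lay below 0. The 11 peaks were 7 of ribosomal protein genes, 3 of PABPC1 and 1 of NPM1, so no elongation factor had one. Of 39 genes of this list with any peak, 8 (20.5%) had one in the 5′ UTR, against 148 of 2213 genes (6.69%) in all. Their 5′ UTR peaks had a median log ratio of 0.55, and 9 of the 11 were above 0 (59.1% of all peaks were). The 68 other peaks of the same list had a median of -0.01. The list was chosen with results of these data known, so its counts are a description.

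RPL24, a protein of the large ribosomal subunit, had 1 peak in all, in the 5′ UTR (hg19 chr3:101405522-101405553, minus strand), whose log ratio was 1.09 at a log average of -7.07. RPL38, also of the large subunit, had a log ratio of 0.75 in the 5′ UTR and -1.06 in the 3′ UTR. RPS25, of the small subunit, had 0.55 in the 5′ UTR and -0.72 in the CDS. RPL32 had 0.45 in the 5′ UTR and -0.63 in the CDS. RPLP1, an acidic protein of the ribosomal stalk that contacts elongation factors, had 0.27 and 0.46 at its pair of 5′ UTR peaks. Its 3 CDS peaks had -0.96, -0.55 and -0.48. In all 4 ribosomal protein genes with both kinds of peak, the 5′ UTR peaks were thus above 0 and the others below it, with differences of 0.92 to 1.81. That arrangement was found in 17 of the 64 genes with both kinds of peak (26.6%).

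The log averages of these peaks do not separate the regions in the same way. RPS25 had a log average of -5.32 in the 5′ UTR and -5.13 in the CDS, and RPLP1 had -4.16 and -3.70 in the 5′ UTR against -4.18 to -3.58 in the CDS. RPL32 was lower in the 5′ UTR, at -7.39 against -5.91 in the CDS. RPL38 was higher there, at -7.74 against -8.28 in the 3′ UTR. In ribosomal protein genes without a 5′ UTR peak, 47 CDS and 3′ UTR peaks had a median log ratio of 0.01, with 24 above 0. The ribosomal protein gene that stood apart was RPL17, whose 66-nt peak (hg19 chr18:47018024-47018089, minus strand) was its sole peak and had a log ratio of -1.67, the second lowest of all 5′ UTR peaks. Ribosomal protein genes have many near-identical processed pseudogenes, and how reads matching several copies were assigned is not stated.

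PABPC1, the cytoplasmic poly(A)-binding protein, whose mRNA its own protein binds in the 5′ UTR, had 3 overlapping 5′ UTR peaks at 0.57, 0.73 and 1.00. Its CDS peak had -0.54 and its 3′ UTR peak 0.76. NPM1, a nucleolar chaperone of ribosome assembly, had a 5′ UTR peak near 0, at -0.03. Against the median of both its CDS and 3′ UTR peaks, the PABPC1 5′ UTR median was 0.62 higher, and against the 3′ UTR peak alone it differed by -0.03.

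**Figure D2:**
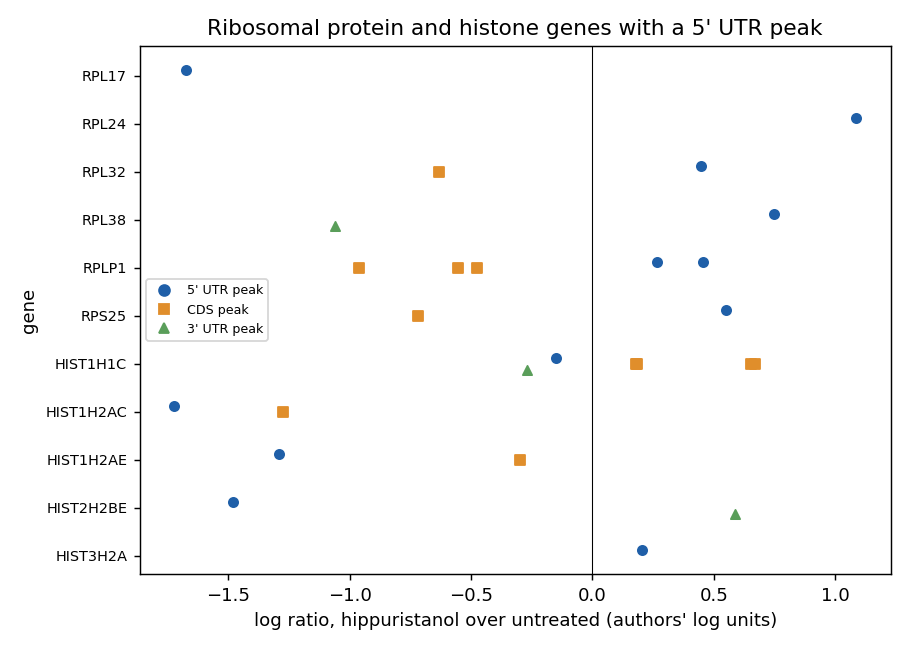
Log ratio in the authors' log units (horizontal axis) of each Ago2 peak in the ribosomal protein and histone genes with a 5′ UTR peak, 1 gene per row, 1 point per peak, with the region given by colour and shape. In RPL32, RPL38, RPLP1 and RPS25 the 5′ UTR peaks lie above 0 and the other peaks below it, while in HIST1H2AC, HIST1H2AE and HIST2H2BE the 5′ UTR peak is the lowest peak of its gene.

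TOP starts were slightly more frequent among genes with a 5′ UTR peak. A start was counted as TOP when the first base was C and at least 5 pyrimidines followed each other from it. Only 1 start per gene was read, so a tract at another start of the gene would be missed. By this rule RPL32 and RPL17, the latter with a log ratio of -1.67, fell among the other matched genes. Of 120 matched genes with a 5′ UTR peak, 13 (10.8%) had one, against 108 of 1610 genes with CDS or 3′ UTR peaks alone (6.71%) and 729 of 15843 protein coding genes of the RefSeq table (4.60%). The 15 5′ UTR peaks of the 13 genes had a median log ratio of 0.39, with 11 above 0 and 3 above 1 (59.1% and 11.3% of all peaks). The 130 peaks of the other matched genes had a median of 0.12, with 76 above 0. In TOP genes without a 5′ UTR peak, 225 CDS and 3′ UTR peaks had a median of 0.18, with 135 above 0.

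Among the TOP genes, the highest log ratio was that of SPATA5, an ATPase of ribosome maturation, at 1.80. RPL24 followed with 1.09 and CLNS1A, a chaperone of spliceosomal ribonucleoproteins, with 1.08. The lowest was NAP1L1, a histone chaperone, at -0.44. NLE1, another ribosome assembly factor, has the longest tract of the set at 13 pyrimidines, and its peak had a log ratio of -0.19. Tract length and log ratio therefore did not run in parallel in these genes. The other peaks of the TOP genes, 17 in 6 genes, had a median of 0.72, but 10 of the 17 belong to PPP1CC, a catalytic subunit of protein phosphatase 1. Without PPP1CC, a choice made after seeing the data, the other 7 had a median of -0.55. The 5′ UTR value was the higher one in 4 of the 6 genes, and in 36 of all 64 genes with both kinds of peak.

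Initiation factors gave mixed values. EIF4G2, an eIF4G relative that lacks the cap-binding part and drives initiation at selected mRNAs, had 5′ UTR peaks with log ratios of 2.04 and 0.43, 1430 bases apart on the chromosome. The first was the second highest of all 5′ UTR peaks, at a low log average of -9.19. EIF4EBP2, which binds eIF4E and keeps eIF4F from forming, had 1.19 and -0.23. EIF1, which guards start codon choice, had 0.43, and EIF3J, a loosely bound subunit of eIF3, had -0.55. In all, 4 of the list's 15 genes with a peak had one in the 5′ UTR (26.7%, against 6.69% of all genes), and 4 of their 6 peaks were above 0, near the 59.1% of all peaks.

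Replication-dependent histones showed the opposite values. Of 22 such genes with a peak, 5 had one in the 5′ UTR (22.7%, against 6.69% of all genes), with a median log ratio of -1.29. Of these 5 peaks, 3 were below -1, where 4.22% of all peaks were. HIST1H2AC, an H2A gene, had -1.72, the lowest value of any 5′ UTR peak, and -1.27 at its CDS peak. HIST2H2BE, an H2B gene, had -1.48 in the 5′ UTR and 0.59 in the 3′ UTR. HIST1H2AE had -1.29 in the 5′ UTR and -0.30 in the CDS.

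The linker histone gene HIST1H1C had -0.15 in the 5′ UTR, between its 3′ UTR peak at -0.27 and its 4 CDS peaks, which reached 0.67. HIST3H2A had a single peak at 0.20. In all 4 histone genes with both kinds of peak, the 5′ UTR value was below the median of the other peaks, with differences of -2.07 to -0.33. Of all 64 genes with both kinds of peak, 28 had the lower value in the 5′ UTR. The 5′ UTR and CDS peaks of HIST1H2AC overlap, so their values are not independent. The 67-nt peak of HIST2H2BE is longer than the 12 bases of its annotated 5′ UTR, so its region is uncertain. The other peaks of the list had a median of -0.21. Histone genes of a class share much of their sequence, so values of single copies are uncertain. DNAJC9, a J-domain chaperone of histones, had a 5′ UTR log ratio of -1.02.

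Stress genes had moderate log ratios, most of them from the HSP70 genes. All 8 5′ UTR peaks of the 4 stress and immediate early genes were above 0 (59.1% of all peaks were), from 0.10 to 0.47, and none passed 1. The 93 other peaks of the list had a median of 0.10, with 54 above 0. HSPA1A, the inducible heat shock protein HSP70, had 4 peaks at 0.39, 0.47, 0.39 and 0.11, and HSPA1B had a pair at 0.41 and 0.37. The HSP70 genes are nearly the same in sequence, and reads may be shared between their peaks. Some of their peaks also overlap within a gene, so the 8 values are not independent. JUN, a subunit of the transcription factor AP-1, had 0.42 in the 5′ UTR, against -1.78, -1.64 and 0.32 in the 3′ UTR. ATF4, whose translation is governed by upstream reading frames in its 5′ UTR, had 0.10.

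Protein folding genes spread over both directions. Their 12 peaks, the HSPA1A and HSPA1B peaks above among them, lay in 7 of 33 genes (21.2%, against 6.69% of all genes). These 12 had a median of 0.38, and the 76 other peaks of the list had a nearby median of 0.34. FKBP2, a prolyl isomerase of the endoplasmic reticulum, had 1.03, and TCP1, a subunit of the cytosolic chaperonin, had -1.22. The single CDS peak of TCP1 had 1.51. CALR, the calcium-binding chaperone calreticulin, had -0.01 and -0.96 at neighbouring 5′ UTR peaks. PPIA, cyclophilin A, had 0.50 at one of the highest log averages of any 5′ UTR peak, -1.49.

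RNA-binding and splicing genes had 8 peaks with a median of 0.49, and 6 were above 0, where 59.1% of all peaks were. The 168 other peaks of the list had a median of 0.28. SRSF3, a splicing factor, had 0.99, DDX6, a helicase of mRNA decay bodies, had 0.96, and SF3B4, a subunit of the U2 particle, had 0.70. SNRPD1, a core protein of the spliceosomal particles, had 0.58 and PCBP2, a poly(C)-binding protein, 0.01. HNRNPA2B1 had -0.22 and -0.78 at abutting peaks. SNRNP70, the U1-specific protein of the spliceosome, which the list did not hold, had -1.18. Of the small RNA machinery, TNRC6B, the scaffold that links Ago proteins to deadenylases, had 0.96 in the 5′ UTR, while CNOT6, a deadenylase of the CCR4-NOT complex, had -0.998.

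Of 73 ubiquitin and proteasome genes with a peak, 4 (5.48%) had one in the 5′ UTR, near the 6.69% of all genes. UBE3C, a ubiquitin ligase, had -1.04, UBB, a ubiquitin precursor, -0.85, and the proteasome subunits PSMA7 and PSMC2 -0.58 and 0.46. Of the transcription factors, 8 of 110 genes (7.27%, near the 6.69% of all genes) had 11 peaks with a median of 0.08. Among them, LHX1, a homeobox gene of kidney development, had 0.33, HOXA10, another homeobox gene, 0.08, and the zinc finger genes ZNF580 and ZNF771 had -0.43 and, at a pair of peaks, -0.90 and -0.05. Phosphatase genes had 3 peaks from 0.39 to 0.52, in PPP1CC and PTPN12. The nuclear-encoded mitochondrial genes MRPL51, a protein of the mitochondrial ribosome, and SLC25A29, a carrier of basic amino acids, had 0.99 and 0.43.

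Vesicle transport genes ranged from -0.74 in STX16, a Golgi syntaxin, to 1.53 in SNX16, a sorting nexin of endosomes, with AP2S1, a subunit of the clathrin adaptor AP-2, at -0.47. FZD4, a Wnt receptor, had -0.28, and TUBA1B, an alpha-tubulin, 0.25. The chromatin genes EZH2, the methyltransferase of Polycomb complex PRC2, and BRD2, a reader of acetylated histones, had -0.08 and 0.10. The solute carrier and ion pump list held SLC25A29 and ATP2C1, a Golgi calcium pump at 0.14. No 5′ UTR peak was found in 9 genes with peaks described as sensitive to eIF4A, in 44 cell cycle genes or in 24 genes described as targets of the let-7, miR-15/16 and miR-17-92 families. With 6.69% of all genes holding one, lists of these sizes would hold few, so the counts of 0 are a description.

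Beyond the lists, the highest log ratio belonged to ZDHHC5, a palmitoyltransferase of the plasma membrane, at 2.09 (hg19 chr11:57439931-57439960, plus strand). TEX30 followed EIF4G2 with 1.99, then SPATA5, and MOB1A, an activator of the Hippo pathway kinases LATS, with 1.74. Next came ZNF711, a zinc finger protein, with 1.65 and SYPL1, a vesicle membrane protein, with 1.64. SNX16 and ARSB, a lysosomal sulfatase, had 1.53 and 1.51. ZDHHC5, TEX30, SPATA5, SNX16 and ARSB had no peak outside the 5′ UTR. Among the lowest, HTR7, a serotonin receptor gene, had -1.13 at a high log average of -2.96.

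FTH1, the ferritin heavy chain, which stores iron, closed the 10 highest with 1.36, at its single peak of 36 nt (hg19 chr11:61735068-61735103, minus strand). Its 5′ UTR holds the iron-responsive element, a hairpin to which iron regulatory proteins bind and so repress translation. The loop motif CAGTGC, flanked by paired bases, began at base 71 of the 235-base 5′ UTR of the main GENCODE 29 transcript and is in capitals here.
FTH1 loop: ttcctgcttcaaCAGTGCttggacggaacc
A loop of this form, CAGTG and any base but G between complementary arms of 5 bases, was found in the longest 5′ UTR of 33 of 18337 coding genes (0.18%). Among the genes with a 5′ UTR peak it also occurred in EIF4G2, at base 48 of the 167-base 5′ UTR of a transcript other than the one the peak table names. Whether the peak covers the loop was not tested, because the peak is on hg19.

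In genes with Ago2 on the 5′ UTR and elsewhere, the log ratios of the regions differed in both directions, with no spread to test them against. Of 64 genes with both, 36 had a higher median log ratio in the 5′ UTR and 28 a lower one, and 32 had both medians on the same side of 0. The median difference was 0.27, with quartiles of -0.41 and 0.66. It was 0.12 against the 3′ UTR alone (50 genes) and 0.07 against the CDS alone (36 genes), and the latter became -0.13 with the peak of the highest log average in each region. A difference of more than 1 was found in 13 of the 64 genes. Among the 5′ UTR peaks of a single gene, a range of more than 1 was found in 7 of 23 genes.

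The largest excess in the 5′ UTR was 2.05 in JUN, followed by 1.81 in RPL38, 1.53 in MOB1A, 1.39 in TUBA1B and 1.27 in RPS25. With the peak of the highest log average in place of the median, the difference was 0.10 in JUN, 2.11 in MOB1A and 2.26 in EIF4EBP2, whose median difference was 0.69, so the order depends on that choice. TUBA1B had 0.25 in the 5′ UTR and -1.16 and -1.12 in the 3′ UTR. The largest deficits were -2.73 in TCP1, -2.25 in UBE3C, -2.07 in HIST2H2BE, -2.04 in NAP1L1 and -1.90 in MARCH9, a ubiquitin ligase of membranes, for which the peak of the highest log average gave -0.91. NAP1L1 had -0.44 in the 5′ UTR and 1.60 in the 3′ UTR. The other 4 of these genes were likewise on opposite sides of 0, with the 5′ UTR below it. Peaks of a gene share its RNA level only as far as they lie on the same transcripts, which was not tested.

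**Figure D3:**
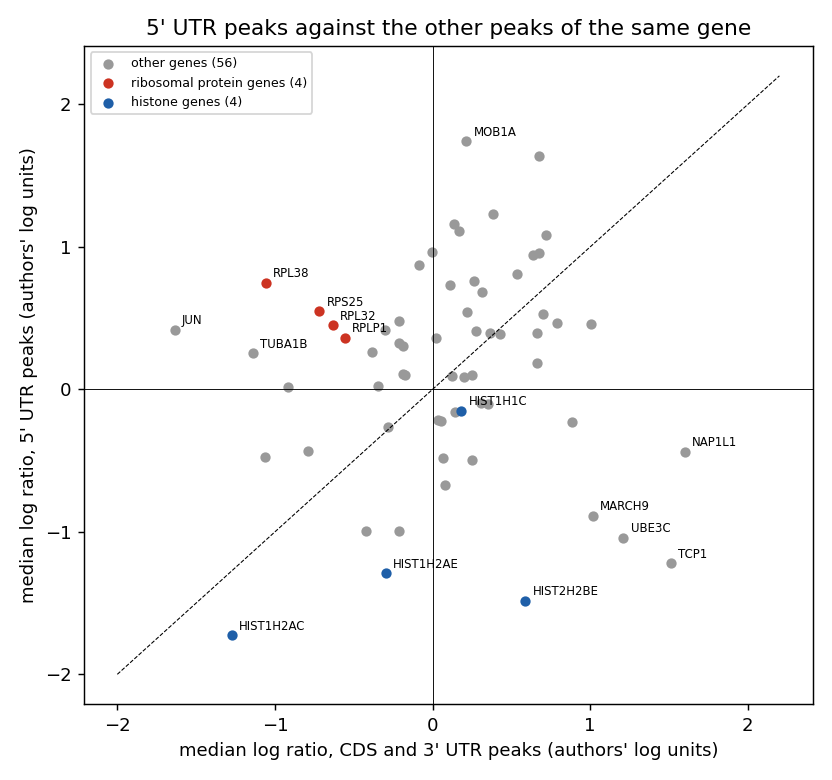
Median log ratio of the 5′ UTR peaks (vertical axis) against that of the CDS and 3′ UTR peaks (horizontal axis) of the same gene, in the authors' log units, 1 point for each of 64 genes; the dashed line marks equal values. Ribosomal protein genes (red) lie in the upper left and the 4 histone genes (blue) lie below the dashed line.

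Several 5′ UTR peaks were found in 23 genes. Of these, 9 had all peaks above 0, 5 had all below and 9 had peaks on both sides. Overlapping neighbours, 9 pairs, differed by a median of 0.09 in log ratio, neighbours abutting or up to 100 nt apart by 0.62 (20 pairs), and those over 100 nt apart by 1.37 (8 pairs). Overlapping peaks share bases, so their values are not independent. Distances were taken along the chromosome and can include introns, and some peaks of a gene are named for different transcripts, as in GPSM1.

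XPO1, the nuclear export receptor, had 5 peaks, of which 4 lay between -0.15 and 0.18 and the 119-nt peak among them had 1.29. ZNF711 had 0.10, -0.53 and, 1817 bases further on, 1.65.

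MARCKS, a substrate of protein kinase C at the membrane, had 1.14, 0.38 and 1.11 along its 5′ UTR. IGF2, a fetal growth factor with several promoters, had 4 peaks within 392 nt at 0.27, 0.08, 0.13 and -0.10. These IGF2 peaks had high log averages of -4.14 to -3.44. XPO1, ZNF711 and IGF2 thus had peaks on both sides of 0, while PABPC1, HSPA1A and MARCKS had all peaks above it.

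**Figure D4:**
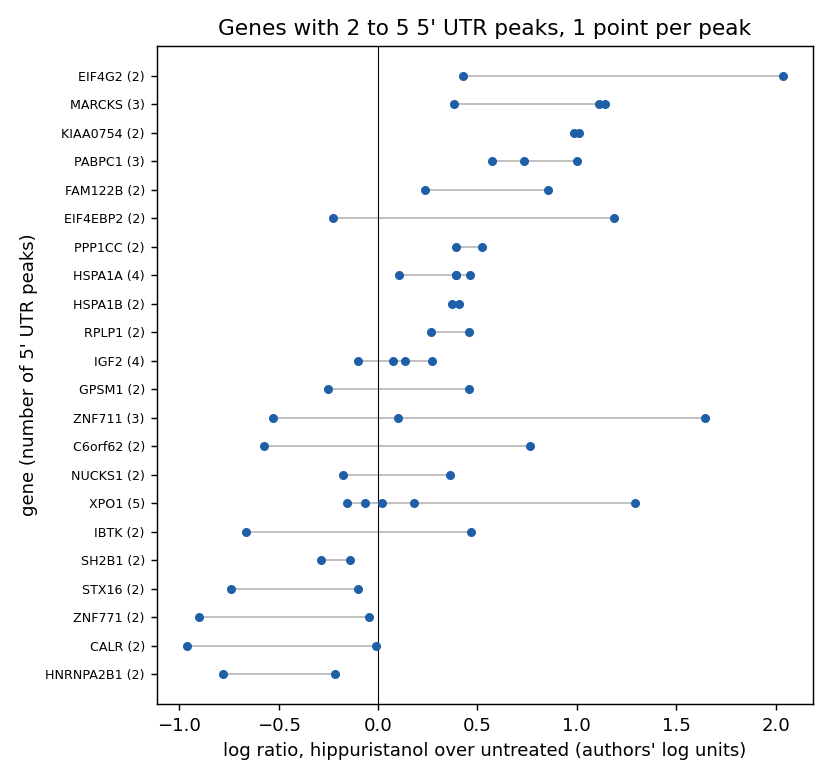
Log ratio in the authors' log units (horizontal axis) of each 5′ UTR peak in the 22 genes with 2 to 5, 1 gene per row ordered by its median, with the number of peaks in parentheses and a grey line from lowest to highest. Peaks of ZNF711 span -0.53 to 1.65, while those of HSPA1A and IGF2 lie within 0.38 of each other.

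High log averages were more frequent in 5′ UTRs than in the other regions. A log average above -4 was found at 23 of 185 5′ UTR peaks (12.4%), against 6.87% of all peaks, 7.06% of CDS, 6.22% of 3′ UTR and 7.83% of non-coding exon peaks. The highest was PROCA1 at 0.23 (hg19 chr17:27038659-27038682, minus strand), then SLC25A29 at -0.49, TMEM185A at -1.05 and PPIA at -1.49. MARCH9 had -2.11, SOLH, a calpain family protease, -2.20, and DKK1, a secreted inhibitor of Wnt signalling, -2.59. ICOSLG, the ligand of a T cell costimulator, had -2.77, CBLN3, a cerebellin, -2.83 and NLE1 -2.96.

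These peaks were short, and most were the gene's sole kind of peak. Of the 23, 12 were 26 nt or less and 16 lay in genes with no CDS or 3′ UTR peak. Among the 40 5′ UTR peaks of up to 26 nt, 12 (30.0%) had a log average above -4, against 14.8% of 216 CDS, 8.25% of 473 3′ UTR and 21.8% of 55 non-coding exon peaks of that length. In the 5′ UTR the share was 11.1% at 27 to 41 nt, 5.77% at 42 to 61 nt and 5.13% at 62 nt or more.

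**Figure D5:**
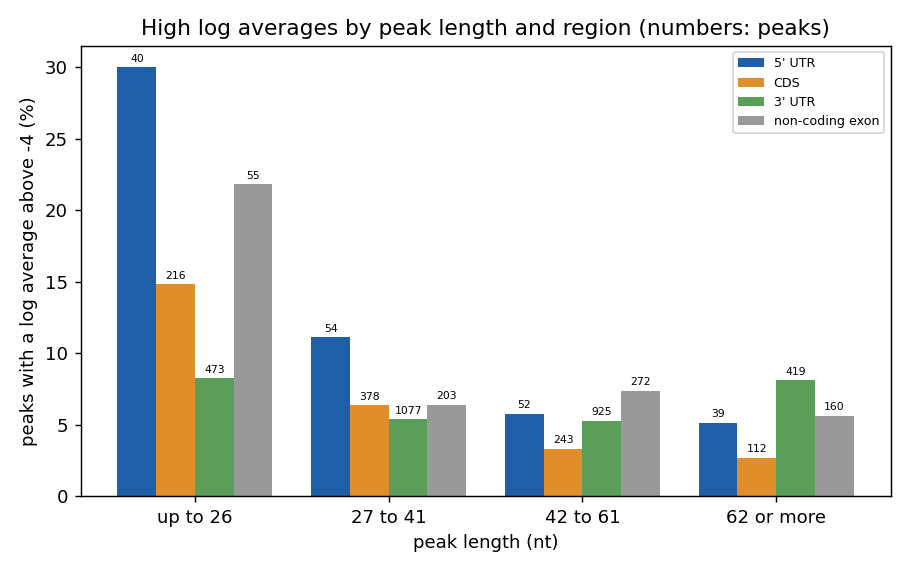
Percentage of peaks with a log average above -4 (vertical axis) by peak length in nt (horizontal axis) and region (colours); the number over each bar is the number of peaks. Among 5′ UTR peaks the bar falls from 30.0% at up to 26 nt to 5.13% at 62 nt or more, while no 3′ UTR bar exceeds 8.25%.

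Log ratios did not follow length. The Spearman correlation across the 185 5′ UTR peaks was -0.26 between length and log average and -0.02 between length and log ratio. The peaks share their libraries, and their depth is unknown. The 84 genes with Ago2 peaks on the 5′ UTR alone had 90 peaks with a median log average of -5.87 and a median length of 32 nt. The 95 5′ UTR peaks of the 64 other genes had -7.40 and 49 nt. Their median log ratios were 0.19 and 0.27.

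AKAP13, an anchoring protein of protein kinase A, had 1 such peak, of 26 nt, whose log average was -3.82 and whose log ratio was -0.33. On the transcript that the peak table names, its annotated 5′ UTR has 81 bases. Another AKAP13 transcript in GENCODE 29 has a 5′ UTR of 223 bases, which holds a mature microRNA from base 53 on (GRCh38.p14 chr15:85380639-85380662, plus strand). The sequence is given with its seed in capitals.
miR-7706: uGAAGCGCcugugcucugccgaga
It was the single such case found when all GENCODE 29 transcripts of the genes were searched. Whether the peak coincides with the microRNA was not tested.

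The annotated 5′ UTRs of the 137 matched genes were long, with a median of 273 nt, against 196 nt in 1841 genes with CDS or 3′ UTR peaks alone and 178 nt in all 18337 coding genes. Their median GC content was 63.0%, below the 67.3% of genes with other peaks and near the 63.5% of all coding genes. An upstream ATG, a possible start before the main one, was present in 59.9%, 50.4% and 60.8%. Genes with a 5′ UTR peak were measured on the transcripts named for those peaks, and genes with other peaks on the transcripts named for theirs. All coding genes were measured on every transcript with a RefSeq match, so the last share in each set is not built in quite the same way. A longer 5′ UTR offers more bases for a peak, an upstream ATG or a seed match, so the sets differ in part by construction. A run of 4 CGG or GGC triplets, a sequence described in mRNAs sensitive to eIF4A inhibitors, was present in 2.92%, 7.66% and 4.08%.

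Among the genes with a 5′ UTR peak, those with an upstream ATG had lower log ratios than those without one. The median was 0.10 in the 82 genes with one, with 49 above 0 (59.8%). It was 0.39 in the 55 genes without one, with 42 above 0 (76.4%). Of all peaks, 59.1% were above 0, so the share in genes with an upstream ATG is near that of all peaks. The 5′ UTRs with an upstream ATG were longer, with a median of 395.5 nt against 139 nt, and the difference was not tested. With the genes ordered by GC content, the median log ratio was 0.37 in the 46 lowest, 0.36 in the 45 in the middle and 0.09 in the 46 highest. Across the 137 genes the Spearman correlation of GC content was -0.11 with log ratio and 0.29 with log average.

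Genes at both ends of the GC range had log ratios on both sides of 0. HIST1H2AC, at 38.6% GC the lowest, had the lowest log ratio of all. PTPN12, CSGALNACT2, IBTK and ARRDC3, at 40.9% to 41.6%, had gene medians of 0.42, 0.11, -0.10 and -0.02. GNAS, which encodes a G protein alpha subunit, had the highest GC content, 86.1%, and a log ratio of 0.30. ZNF768 and MFHAS1 had 0.02 and 0.06, EIF4EBP2 a median of 0.48 and HTR7 -1.13. The annotated 5′ UTRs of EIF4EBP2 and HTR7 have 23 and 27 bases, less than the hg19 peaks span in EIF4EBP2, so the annotation behind the peaks was longer there.

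Seed matches of 8 microRNA families abundant in many cells were searched in the sense strand of the longest 5′ UTR, as CTACCTC for let-7, GCACTTT for miR-17, TGCTGCT for miR-15/16, TTTGCAC for miR-19 and the matches of the miR-25/92, miR-10, miR-30 and miR-103 families. At least 1 was present in 30 of the 137 genes (21.9%), against 10.1% of genes with other peaks and 11.8% of all coding genes. Per kilobase of 5′ UTR, the difference was smaller, at 0.54, 0.40 and 0.41 genes with a match. The most frequent was the miR-15/16 match, in 13 genes, followed by miR-19 in 6 and let-7 and miR-10 in 5 each. TGCTGCT also arises within CTG repeats, as in MARCKS, where 5 matches overlap or lie close together in 2 runs.

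Genes with a match had a median log ratio of 0.30 and those without one 0.25, values close to each other. TEX30 with a miR-17 match had 1.99, TNRC6B with a pair of miR-19 matches and a miR-15/16 match had 0.96, and DDX6 with a miR-15/16 match 0.96. RAD54L, a DNA repair helicase with a let-7 match, had -0.99, and TCP1, with a miR-15/16 match, had -1.22.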

How the data were processed

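CLIP peaks of 293S cells were analysed from the table the authors deposited. Per the file headers, its 2 value columns are scores normalized by the authors, 1 log average over both treatments and 1 log ratio (hippuristanol over untreated). Bowtie 0.12.8, TopHat, DESeq and hg19 are named in the submitters' processing notes, without roles, and how libraries were pooled and peaks called is not stated. With 1 pooled value per peak, medians, counts and differences were computed with no test or p-value, and depth is unknown. No per-sample column was present. Peak lengths count both ends, because starts most often equal another peak's end plus 1.

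RefSeq (GRCh38.p14) and GENCODE 29 gave names, gene starts, microRNAs and 5′ UTRs, and 137 of 148 genes matched GENCODE. The value of a gene was the median over its transcripts for 5′ UTR length and GC content, and the median over its peaks for the log ratio. Scripts (Python 3 with pandas and SciPy) were tested on simulated data. Members and lists were chosen with earlier results of these data known. Named genes were, 1 value per gene, the 10 highest and 10 lowest log ratios, the 10 highest log averages, genes with 3 or more 5′ UTR peaks, the 5 largest within-gene differences each way, the 5 highest and lowest GC contents and up to 4 members of each list by log average. A gene that the rule names is not reported here. Others, such as AKAP13 for its microRNA, were named after their values were seen. The rule names FTH1 among the 10 highest log ratios, but its loop was described after its value was seen. Alternative settings are given in the closing section.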

Additional observations from a re-analysis of the deposited data

How the results depend on the processing

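The median log ratio, the share above 0 and the counts above 1 and below -1 were recomputed with every row counted, with 1 value per gene, with 1 peak per overlapping cluster, without the 25% of lowest log averages, without peaks under 20 nt and with RefSeq annotated peaks alone, which all 5′ UTR peaks were. The median log ratio stayed between 0.20 and 0.27 and the count above 1 between 16 and 24. After the median of all peaks was subtracted, 53.5% of 5′ UTR peaks were above 0, 15 above 1 and 17 below -1, with a median of 0.10. At a limit of 0.5 the counts were 57 and 30. With the peak of the highest log average per region, the within-gene difference was 0.29 against the 3′ UTR and -0.13 against the CDS. Chosen after seeing the data, a floor of -5 gave 47.5% of short 5′ UTR peaks a high log average, and all coding genes as the comparison gave a GC difference of -0.51 percentage points. Without PPP1CC, the median of the other peaks of genes with a TOP start was -0.55 and not 0.72. The ribosomal list had a median of 0.46 for RPL, RPS and RPLP genes and 0.50 with 1 value per gene. No paired analysis was possible because each peak has 1 value pooled over the cultures, and for the same reason no culture or antibody could be left out.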
